A study of Homo sapiens with 12 samples.

Results

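The interleukin 6 (IL6) receptor, JAK, STAT3 and PIM genes were followed in KMS11, an established line of human myeloma cells. The 9 genes were taken by symbol from the deposited expression table: the receptor chains IL6R and IL6ST, the kinases JAK1 and JAK2, the transcription factor STAT3, the feedback inhibitors SOCS1 and SOCS3, and the kinases PIM1 and PIM2. All 9 of the 29607 genes in the table were found, and all 9 were among the 12731 genes that reached 1 TPM in at least 2 libraries and were tested. TPM, an abundance scaled for transcript length, sets each library to the same total, so levels can be set side by side between genes. The 12 libraries form 6 groups of 2. Cells carried 1 of the hairpins against STK17B (sh1 or sh2), or were wild type and received an STK17B inhibitor; the group set against these carried a control hairpin (shControl) and was untreated. A further group overexpressed STK17B and was set against cells with an empty vector (Vector). STK17B (also DRAK2) encodes a kinase related to the death-associated protein kinases, and the study's title links it to ferroptosis and to drug resistance in myeloma. All cells were KMS11, so each comparison is within 1 line. The labels give the inhibitor cells as wild type, while the design text has the inhibitor applied to cells with a control hairpin. The labels name neither the inhibitor, its dose or time, nor the promoter that drives the cDNA, and no group is labelled as vehicle. Effects of the inhibitor, of solvent and, by the labels, of the control hairpin carried only by shControl therefore cannot be told apart in the inhibitor comparisons.

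IL6 is a growth and survival factor for plasma cells and myeloma cells, made largely by marrow stroma. It binds IL6R, and the pair engages IL6ST (gp130), the signalling chain that all cytokines of the family share. JAK1, JAK2 and TYK2 sit on the tail of gp130 and phosphorylate STAT3, which moves to the nucleus and switches on genes that include SOCS3 and PIM1. SOCS1 and SOCS3 then damp the kinases, and PIM kinases, which are active once made, promote survival and protein synthesis.

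In all libraries 16577 to 17354 genes were listed above 0. The targeted transcript followed the labels: STK17B was at 12.7 and 10.9 TPM with sh1, 14.5 and 14.7 TPM with sh2, 24.9 and 22.4 TPM with the inhibitor and 27.1 and 27.4 TPM in shControl, and at 94.1 and 84.5 TPM with overexpression, against 28.2 and 31.5 TPM in Vector. Of 9 plasma cell markers all were tested, 8 of them at 6.76 TPM or more in every library, while CD38 stood between 0.127 and 1.47 TPM. Of 20 markers of other cells 5 were tested. CD3D (T cells), LUM (fibroblasts) and CDH5 (endothelium) were listed at 0 in every library, VWF was at most 0.054 TPM and COL1A1 at most 2.17 TPM. PECAM1, an adhesion molecule of endothelium and of blood cells, was lower in the knockdown (1.53 ± 0.26 TPM, n = 4, against 4.49 ± 0.45 TPM in shControl, n = 2; -1.12), with the inhibitor (0.85 ± 0.09 TPM, n = 2; -1.57) and with overexpression (0.99 ± 0.01 TPM against 4.83 ± 0.29 TPM in Vector, n = 2 each; -1.55). CD3E was higher in the same comparisons, by 0.59, 0.41 and 0.77, within 3.23 to 7.74 TPM. EPCAM (5.005 to 7.99 TPM) was lower in the knockdown (-0.26) and KRT18 (3.88 to 7.97 TPM) and ITGAM (0.498 to 1.37 TPM) passed in none of them. The 9 plasma cell markers summed to between 4795 and 5063 TPM with the inhibitor, between 5230 and 5947 TPM with the hairpins and between 6970 and 6988 TPM in shControl, and to between 7158 and 7471 TPM with overexpression, against 6865 to 7374 TPM in Vector. JCHAIN alone was at 3239 to 5532 TPM, so this gene weighed most in the sums. Of the 9, 8 were lower in the knockdown, where 20.2% of all tested genes were lower. With the inhibitor 8 were lower and 1 higher (11.8% and 28% of all genes), and with overexpression 6 were lower and 1 higher (10.3% and 26.6%). The part of these marker shifts in the results on IL6R and PIM1 was not tested. In these bulk samples fewer cells of a type and less RNA per cell cannot be told apart.

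IL6R, STAT3, SOCS3 and PIM1 were the members lower with the inhibitor than in shControl, as given below, and their promoters are shown for that reason. The RefSeq table (GRCh38.p14) held promoters for all 9 members, in 15 windows. The 250 bases before the annotated start were searched on both strands. The STAT motif TTCNNNGAA was found in none of the 15 windows, and in 6.57% of 35116 promoters in the table. The RefSeq starts differ from the GENCODE gene bounds given below. For SOCS3 the GENCODE start, at 78360077, lies between the 2 windows, so the 250 bases before that start were not searched. The IL6R and STAT3 windows run past the GENCODE start into the gene. Absence from these windows therefore does not cover every promoter of the members. The hypoxia core ACGTG was in 1 window, of JAK1, and in 18.5% of all promoters. The shorter STAT-like spacing TTCNNGAA, searched after these results were seen, was in 1 window each of IL6R, JAK1, STAT3 and SOCS3, and in 6.62% of all promoters. The same ends with 4 bases between them, also searched afterwards, were in none of the 15 windows and in 5.38% of all promoters. The GC box GGGCGG, also searched afterwards, was in 42.6% of all promoters. It had 4 matches before PIM1, 2 before STAT3 and none before IL6R or in either window of SOCS3. The sequences run 5′ to 3′ toward the start, with TTCNNGAA and GGGCGG (or its complement CCGCCC) in capitals. IL6R is on the plus strand at chr1:154405093-154405342, STAT3 on the minus strand at chr17:42388443-42388692, SOCS3 on the minus strand at chr17:78360926-78361175 (the first of 2 windows) and PIM1 on the plus strand at chr6:37169902-37170151.
IL6R: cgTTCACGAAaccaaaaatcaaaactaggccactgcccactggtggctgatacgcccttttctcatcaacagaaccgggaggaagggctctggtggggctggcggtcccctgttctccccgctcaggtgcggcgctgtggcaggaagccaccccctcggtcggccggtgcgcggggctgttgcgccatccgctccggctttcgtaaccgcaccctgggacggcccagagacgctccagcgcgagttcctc
STAT3: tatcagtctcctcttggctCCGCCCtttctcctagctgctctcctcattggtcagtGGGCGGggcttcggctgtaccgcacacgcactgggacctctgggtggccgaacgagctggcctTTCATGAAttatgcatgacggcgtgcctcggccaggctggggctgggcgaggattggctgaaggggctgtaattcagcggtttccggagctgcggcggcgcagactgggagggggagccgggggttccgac
SOCS3: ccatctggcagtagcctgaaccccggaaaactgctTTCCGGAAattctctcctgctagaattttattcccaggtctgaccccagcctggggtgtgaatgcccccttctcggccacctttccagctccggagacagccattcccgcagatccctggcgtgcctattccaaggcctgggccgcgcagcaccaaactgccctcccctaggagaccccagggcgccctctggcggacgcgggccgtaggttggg
PIM1: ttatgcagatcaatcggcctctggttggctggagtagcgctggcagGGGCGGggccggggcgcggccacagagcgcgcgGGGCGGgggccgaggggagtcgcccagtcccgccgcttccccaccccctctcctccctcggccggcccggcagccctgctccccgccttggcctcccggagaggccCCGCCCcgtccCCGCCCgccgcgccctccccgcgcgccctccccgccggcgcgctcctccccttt
The PIM1 window was 79.6% G and C and the IL6R window 65.2%. A match in these windows is a description of the letters and not a binding site.

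The ligand-binding chain fell with both hairpins and with the inhibitor, while the signalling chain did not pass in either comparison. IL6R (ENSG00000160712.12; GRCh38, chromosome 1, 154405193 to 154469450, plus strand) was at 8.84 and 8.41 TPM with sh1, at 12.3 and 11.5 TPM with sh2 and at 6.89 and 6.63 TPM with the inhibitor, against 22.6 and 22.9 TPM in shControl. All 6 libraries of the hairpins and the inhibitor lay below both shControl libraries. On the log2(TPM + 1) scale of the test, on which the change of a low gene is understated, IL6R fell by 1.09 in the mean of the hairpins (SE 0.043, limma adjusted p = 2.7e-07). With the inhibitor it fell by 1.61 (SE 0.049, adjusted p = 4.5e-08). In TPM + 1, not TPM, these changes are to 47.0% and 32.7% of shControl. Ordered from the lowest change upward, IL6R ranked 41 in the knockdown and 39 with the inhibitor among 12731 genes. The inhibitor libraries were also below those of the hairpins (log2 difference -0.52, SE 0.043, adjusted p = 8.8e-06).

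IL6R differed between the hairpins and between the control groups as well. It was 0.42 log2 units higher with sh2 than with sh1 (SE 0.049, limma adjusted p = 0.0079). STK17B was 0.29 higher with sh2 and did not pass (adjusted p = 0.12). The call of IL6R ended when sh1 and sh2 alone were fitted, without sh1 replicate 2 and without sh2 replicate 1. The overexpression libraries stood at 20.9 and 21.3 TPM, below the Vector libraries at 29.3 and 28.9 TPM. The log2 change was -0.45 (SE 0.049, adjusted p = 1.5e-04). Vector itself was above shControl by 0.34 (SE 0.049, adjusted p = 9.8e-04), and with the control columns exchanged the change with overexpression was -0.10 and did not pass (adjusted p = 0.099). The control columns of the table carry no group name and were assigned by library number, which is an inference. In order of group means IL6R was lowest with the inhibitor, then sh1, sh2, overexpression, shControl and Vector, and no neighbouring groups in that order overlapped.

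IL6ST (ENSG00000134352.19; chromosome 5, 55935095 to 55994993, minus strand) differed between Vector and shControl. With the control columns as assigned it passed in no comparison of hairpins, inhibitor or overexpression with its control. It was at 42.1 and 35.3 TPM with sh1, 42.5 and 42.2 TPM with sh2 and 38.4 and 34.4 TPM with the inhibitor, against 36.7 and 38.6 TPM in shControl. The sh1 and inhibitor libraries overlapped shControl. The changes were 0.10 in the knockdown (limma adjusted p = 0.34) and -0.05 with the inhibitor (adjusted p = 0.72). With overexpression IL6ST was at 62.6 and 54.3 TPM, against 53.2 and 58.3 TPM in Vector, 2 groups that overlapped. Vector was 0.55 above shControl (SE 0.093, adjusted p = 0.0023), so that with the control columns exchanged the knockdown value became -0.45 and passed (adjusted p = 0.0014). The exchange also gave calls with the inhibitor (-0.60, adjusted p = 5.1e-04) and with overexpression (0.62, adjusted p = 3.8e-04). As assigned, the value for sh2 alone passed when only the groups compared were fitted. The ratio of IL6ST to IL6R within a library was 4.2 to 4.8 with sh1, 3.5 to 3.7 with sh2 and 5.2 to 5.6 with the inhibitor, against 1.6 to 1.7 in shControl. It was 2.6 to 3.0 with overexpression, against 1.8 to 2.0 in Vector. The ratio compares levels per transcript length, and in each of these groups it was above that of the control group used for comparison.

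**Figure D1:**
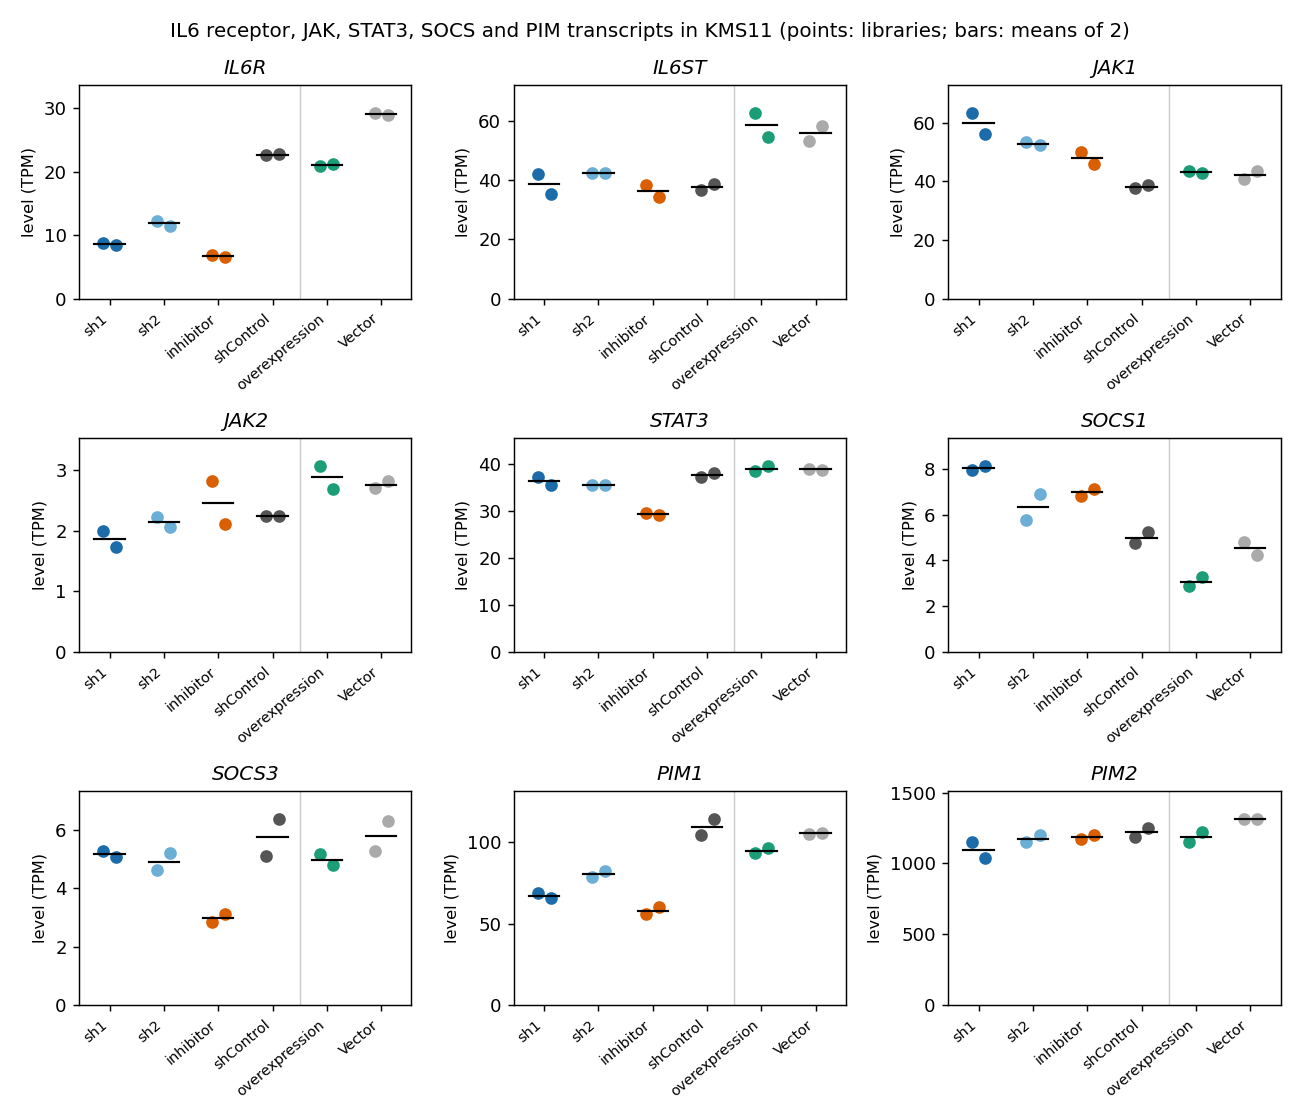
Level in TPM (linear axis from 0) of the 9 genes in each of the 12 libraries, by group; points are libraries and bars are means of 2. IL6R and PIM1 lie lower with sh1, sh2 and the inhibitor than in shControl, STAT3 and SOCS3 lie lowest with the inhibitor, and JAK1 and SOCS1 lie higher with sh1, sh2 and the inhibitor than in shControl.

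Of the kinases, JAK1 rose and JAK2 stayed near the lower limit of what was tested. JAK1 (ENSG00000162434.11; chromosome 1, 64833229 to 64966504, minus strand) was at 63.4 and 56.2 TPM with sh1, 53.3 and 52.5 TPM with sh2 and 50.1 and 46.0 TPM with the inhibitor, against 37.7 and 38.7 TPM in shControl. All 6 libraries were above shControl. The log2 change was 0.55 in the knockdown (SE 0.053, limma adjusted p = 3.8e-05) and 0.32 with the inhibitor (SE 0.061, adjusted p = 0.0028). The inhibitor libraries were 0.22 log2 units below the hairpins (difference -0.22, SE 0.053, adjusted p = 0.0060), a call that ended without inhibitor replicate 2. With overexpression JAK1 was at 43.6 and 42.7 TPM, against 40.8 and 43.5 TPM in Vector, and the change of 0.03 did not pass (adjusted p = 0.70). JAK2 (ENSG00000096968.13; chromosome 9, 4984390 to 5128183, plus strand) was between 1.73 and 3.06 TPM in every library. Its values of -0.11 (knockdown), 0.09 (inhibitor) and 0.04 (overexpression) did not pass (adjusted p = 0.37, 0.58 and 0.79). JAK1 exceeded JAK2 by 31.7 and 32.4 times in the sh1 libraries and 24.0 and 25.5 times with sh2 and 17.8 and 21.8 times with the inhibitor, against 16.8 and 17.2 times in shControl.

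STAT3 (ENSG00000168610.14; chromosome 17, 42313324 to 42388568, minus strand) fell with the inhibitor and was close to shControl with the hairpins. The inhibitor libraries had 29.4 and 29.2 TPM, against 37.2 and 38.0 TPM in shControl, with no overlap (log2 change -0.35, SE 0.037, limma adjusted p = 1.1e-04). With sh1 the levels were 37.2 and 35.4 TPM and with sh2 35.5 and 35.5 TPM, and the knockdown value was -0.07 (adjusted p = 0.12). It was -0.10 and passed after rescaling by the median of ratios (adjusted p = 0.024) and after quantile normalization (-0.10, adjusted p = 0.025), and -0.11 with the control columns exchanged (adjusted p = 0.017). The difference between the inhibitor and the hairpins passed (-0.28, SE 0.032, adjusted p = 6.7e-05). With overexpression STAT3 was at 38.4 and 39.5 TPM, against 39.0 and 38.8 TPM in Vector. That change of 0.00 did not pass (adjusted p = 0.96), and it was -0.10 and passed narrowly after the median of ratios (adjusted p = 0.047).

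The feedback inhibitors moved in opposite directions with the inhibitor. SOCS3 (ENSG00000184557.4; chromosome 17, 78356778 to 78360077, minus strand), which binds gp130 and blocks the JAKs, was at 2.84 and 3.12 TPM with the inhibitor, against 5.11 and 6.36 TPM in shControl. The groups did not overlap, and the log2 change was -0.75 (SE 0.11, limma adjusted p = 6.6e-04). With sh1 SOCS3 was at 5.27 and 5.06 TPM and with sh2 at 4.61 and 5.19 TPM, and the knockdown value of -0.15 did not pass (adjusted p = 0.21). The inhibitor differed from the hairpins by -0.60 (SE 0.095, adjusted p = 5.5e-04). With overexpression it was at 5.16 and 4.78 TPM, against 5.27 and 6.30 TPM in Vector (-0.18, adjusted p = 0.23), and it passed after quantile normalization (-0.35, adjusted p = 0.020).

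SOCS1 (ENSG00000185338.5; chromosome 16, 11254405 to 11256200, minus strand), which binds JAKs directly and is also induced by interferons, had the highest levels where STK17B transcript was lowest and the lowest levels where it was highest. It was at 7.94 and 8.13 TPM with sh1, 5.76 and 6.90 TPM with sh2 and 6.81 and 7.13 TPM with the inhibitor, against 4.76 and 5.23 TPM in shControl. No library of these groups overlapped shControl. The log2 change was 0.44 in the knockdown (SE 0.083, limma adjusted p = 0.0021) and 0.41 with the inhibitor (SE 0.096, adjusted p = 0.0080). The inhibitor call ended without shControl replicate 1, and the call for sh2 alone (0.29, adjusted p = 0.043) ended in 11 of 23 alternatives. With overexpression SOCS1 was at 2.88 and 3.28 TPM, against 4.83 and 4.22 TPM in Vector (-0.44, SE 0.096, adjusted p = 0.0063), a call that ended without Vector replicate 1. The knockdown effect exceeded the overexpression effect by 0.88 (SE 0.13, adjusted p = 8.9e-04). The inhibitor group departed from the order by STK17B transcript. Its mean SOCS1 was 6.97 TPM at 23.7 TPM of STK17B, against 6.33 TPM at 14.6 TPM of STK17B with sh2.

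**Figure D2:**
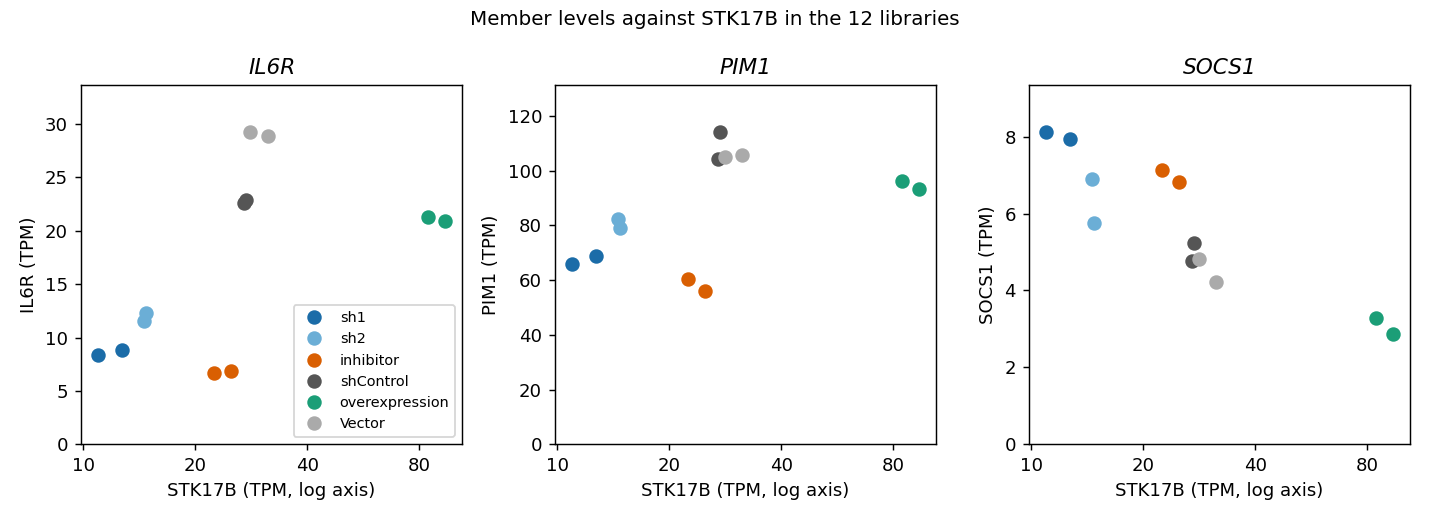
Levels of IL6R, PIM1 and SOCS1 (TPM, linear axis from 0) against STK17B (TPM, log axis) in the 12 libraries, coloured by group. SOCS1 is at 2.88 and 3.28 TPM in the 2 libraries with the most STK17B and at 7.94 and 8.13 TPM in the 2 with the least, while IL6R and PIM1 are lowest with the inhibitor, at 24.9 and 22.4 TPM of STK17B. In these inhibitor libraries SOCS1 is at 6.81 and 7.13 TPM.

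Of the PIM kinases, PIM1 fell and PIM2, the more abundant of the pair, differed little. PIM1 (ENSG00000137193.13; chromosome 6, 37170203 to 37175426, plus strand), a STAT3 target that slows apoptosis, was at 68.8 and 65.8 TPM with sh1, 78.8 and 82.2 TPM with sh2 and 56.0 and 60.2 TPM with the inhibitor, against 104 and 114 TPM in shControl. All 6 libraries lay below shControl. The log2 change was -0.56 in the knockdown (SE 0.045, limma adjusted p = 1.2e-05) and -0.90 with the inhibitor (SE 0.052, adjusted p = 2.9e-06), and the inhibitor was below the hairpins by 0.34 (difference -0.34, SE 0.045, adjusted p = 1.8e-04). PIM1 stood 0.26 higher with sh2 than with sh1 (adjusted p = 0.047), a call that ended in 14 of 23 alternatives. With overexpression it was at 93.2 and 96.2 TPM, against 105 and 106 TPM in Vector. The change of -0.15 (SE 0.052, adjusted p = 0.042) lost its call without either library of Vector, overexpression or sh2.

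PIM2 (ENSG00000102096.9; chromosome X, 48913182 to 48919024, minus strand), the PIM kinase for which myeloma cells are best known, was between 1040 and 1312 TPM in every library. It was at 1148 and 1040 TPM with sh1, 1151 and 1199 TPM with sh2 and 1172 and 1200 TPM with the inhibitor, against 1185 and 1252 TPM in shControl. The hairpin and inhibitor groups overlapped shControl apart from sh1, which lay below it (-0.16, SE 0.048, limma adjusted p = 0.025), a call that ended in 6 of 23 alternatives. The knockdown value of -0.10 did not pass (adjusted p = 0.066) and did so after the median of ratios (-0.14, adjusted p = 0.017), with the control columns exchanged and without sh1 replicate 1. With overexpression PIM2 was at 1154 and 1219 TPM, against 1311 and 1312 TPM in Vector (-0.14, SE 0.048, adjusted p = 0.040), a call that ended in 10 of 23 alternatives. In each library PIM2 exceeded PIM1, by 15.8 and 16.7 times with sh1, 14.6 times in both sh2 libraries and 20.9 and 19.9 times with the inhibitor, against 11.4 and 10.96 times in shControl.

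**Figure D3:**
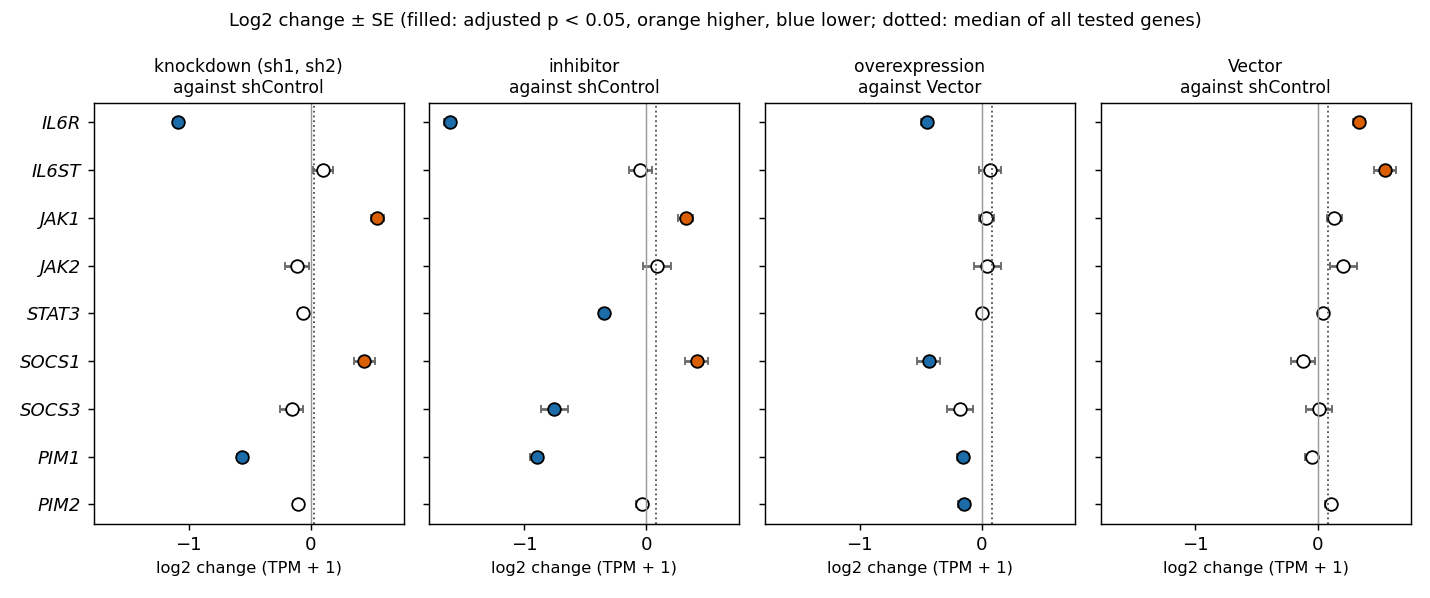
Log2 change of each of the 9 genes on the log2(TPM + 1) scale, with its standard error, in 4 comparisons; filled points passed at an adjusted p below 0.05 (orange higher, blue lower) and the dotted line is the median of all tested genes. IL6R and PIM1 are lower and JAK1 and SOCS1 higher in the knockdown and with the inhibitor, STAT3 and SOCS3 pass as lower with the inhibitor, and IL6R and IL6ST pass as higher in Vector against shControl.

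Set against all tested genes, the number of members called was not high in the knockdown. Averaged over the hairpins, 4 of the 9 members were called, 2 in each direction, and 46.3% of all tested genes were called there, 26.2% as higher and 20.2% as lower (limma, Benjamini-Hochberg over all genes). The median change of the members was -0.10, against 0.03 for all genes. With sh1 alone 2 were higher and 3 lower, where 45% of all genes were called (23.7% higher, 21.3% lower), and with sh2 alone 2 were higher and 2 lower, where 35.5% were called (22% higher, 13.4% lower). With the inhibitor 2 were higher and 4 lower, where 39.9% of all genes were called (28% higher, 11.8% lower). The members' median was -0.05 with the inhibitor, against 0.08 for all genes. The knockdown and inhibitor comparisons share the shControl libraries.

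With overexpression none of the members was higher and 4 were lower, where 36.8% of all genes were called (26.6% higher, 10.3% lower). Relative to the median of all genes, which quantile normalization moved by -0.10, IL6R changed by -0.53, SOCS1 by -0.52, PIM1 by -0.24 and PIM2 by -0.23. Between the control groups 2 members were higher in Vector than in shControl and none lower, where 29.3% of all genes were called (21.4% higher, 7.86% lower). In sh2 against sh1 2 members were higher, where 1.55% of all genes were called and 1.16% were higher. With the inhibitor against the hairpins 5 members were lower and none higher, where 52.6% of all genes were called (30.9% higher, 21.6% lower). The knockdown effect differed from the overexpression effect in 4 members, where 29.9% of all genes did (11.4% higher, 18.5% lower). It was lower for IL6R (-0.64) and PIM1 (-0.41) and higher for JAK1 (0.51) and SOCS1 (0.88).

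The cells held hardly any transcript for the ligands. IL6 itself stayed at or below 0.165 TPM throughout, and it and 7 more of the 9 cytokines of the family did not reach the level needed for a test. Oncostatin M (OSM) was the tested one, at 0.589 to 2.12 TPM, and its values of -0.46 (knockdown), -0.38 (inhibitor) and -0.28 (overexpression) did not pass (limma adjusted p = 0.073, 0.20 and 0.35). Of 6 other receptors of the family 2 were tested, and both rose in the knockdown. IL27RA, which pairs with gp130 to bind interleukin 27, was at 92.4 ± 6.15 TPM with the hairpins (mean ± SD, n = 4) and 53.4 ± 1.29 TPM in shControl (n = 2), a log2 change of 0.78 (SE 0.032, limma adjusted p = 3.2e-07). It was at 71.0 ± 2.76 TPM with the inhibitor (n = 2; 0.40, SE 0.037, limma adjusted p = 5.6e-05). IL11RA rose by 0.59 in the knockdown and by 0.52 with overexpression, and the knockdown value became -0.32 with the control columns exchanged. LIFR, OSMR and CNTFR were below 1 TPM in every library.

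The other JAKs and STATs were all tested, 8 in number. In the knockdown 5 rose and 2 fell, where 26.2% of all genes were higher and 20.2% lower. TYK2, the third kinase of the gp130 complex, rose by 0.46 in the knockdown (108 ± 5.73 TPM, n = 4, against 78.2 ± 3.02 TPM in shControl, n = 2; SE 0.033, limma adjusted p = 6.0e-06) and by 0.25 with the inhibitor. With overexpression TYK2 rose by 0.19 (limma adjusted p = 0.0037), a call that ended after the median of ratios. STAT5B fell by 0.46 in the knockdown and rose by 0.24 with overexpression, where its call ended after either rescaling and without Vector replicate 1. With the inhibitor 1 of the 8 rose and 3 fell (28% and 11.8% of all genes), among them STAT2, which acts in the type I interferon response (-0.73), and STAT6, which interleukin 4 activates (-0.33). STAT6 rose with overexpression (0.52), where 4 of the 8 rose and 1 fell (26.6% and 10.3% of all genes). In the knockdown STAT6 rose as well (0.37, limma adjusted p = 7.0e-05), opposite to its change with the inhibitor. STAT2 was 0.14 higher in the knockdown (limma adjusted p = 0.0081). That call ended without shControl replicate 1, and the value turned with the control columns exchanged.

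Of 16 further SOCS, PIAS and phosphatase genes 14 were tested. In the knockdown 3 rose and 2 fell, with a median of -0.04, where 26.2% of all genes were higher and 20.2% lower. PTPN2, a phosphatase that acts on JAK1 and STATs, rose by 0.34 in the knockdown and by 0.38 with the inhibitor, and PTPN6 (SHP-1) fell by 0.15 and by 0.41. The knockdown call of PTPN6 ended without shControl replicate 2. Of 9 genes of receptor shedding and adaptors 2 rose and 3 fell in the knockdown, where 46.3% of all genes were called. ADAM10, a protease that can shed IL6R, fell by 0.46 in the knockdown (30.2 ± 2.57 TPM, n = 4, against 41.8 ± 0.55 TPM in shControl, n = 2) and by 0.24 with the inhibitor. GAB1, an adaptor of the SHP2 branch, fell by 0.49 with the inhibitor, at a low level (1.09 ± 0.19 TPM against 1.94 ± 0.06 TPM in shControl).

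Of 21 tested STAT3 target genes, 10 fell and 4 rose in the knockdown, where 20.2% of all genes were lower and 26.2% higher. Their median was -0.12, against 0.03 for all genes. The plasma cell factors IRF4 (-0.68) and PRDM1 (-0.64), also counted above as plasma cell markers, fell, as did VEGFA (-0.61), and IL10 rose by 0.81 from a low level (1.43 ± 0.06 TPM with the hairpins, n = 4, against 0.39 ± 0.11 TPM in shControl, n = 2). With the inhibitor 9 fell and 5 rose (11.8% and 28% of all genes), with a median of -0.09, against 0.08 for all genes. VEGFA, which hypoxia also induces, fell by 1.70 (19.8 ± 0.66 TPM against 66.7 ± 4.04 TPM in shControl), and BCL2L1, which encodes the survival protein BCL-XL, fell by 0.80 (91.4 ± 1.72 TPM against 160 ± 0.13 TPM in shControl). IL21R went the other way and rose by 0.42 (31.1 TPM against 22.9 TPM in shControl, limma adjusted p = 1.4e-04). It rose by 0.54 in the knockdown as well (limma adjusted p = 8.5e-06). With overexpression 6 fell and 4 rose (10.3% and 26.6% of all genes), with a median of -0.14, against 0.08 for all genes. VEGFA rose by 1.19 (143 ± 3.68 TPM against 62.1 ± 1.72 TPM in Vector), and BCL2L1 fell by 0.47. IL10 rose here too, by 0.42 (1.06 ± 0.20 TPM against 0.55 ± 0.22 TPM in Vector, limma adjusted p = 0.036). That call was kept in 15 of 21 alternatives. BCL2L1 also fell by 0.49 in the knockdown (adjusted p = 2.2e-06), so it was lower in all 3 comparisons, while VEGFA was lower in the knockdown and with the inhibitor and higher with overexpression. IRF4 too was lower in all 3, with the inhibitor (-0.35, limma adjusted p = 1.0e-04) and with overexpression (-0.35, limma adjusted p = 1.2e-04). PRDM1 was lower with the inhibitor (-0.37, limma adjusted p = 0.0070) and did not pass with overexpression (-0.14, limma adjusted p = 0.24).

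Genes of the PIM partner and substrate list were all tested, 13 in number, and moved both ways. In the knockdown 6 rose and 4 fell, with the inhibitor 5 rose and 4 fell, and with overexpression 5 rose and 3 fell. Of all genes 46.3%, 39.9% and 36.8% were called in these comparisons. PIM3, the remaining kinase of the family, was at 72.6 ± 6.69 TPM with the hairpins (n = 4) and 94.1 ± 4.02 TPM in shControl (n = 2) and fell by 0.37 (SE 0.041, limma adjusted p = 7.9e-05). PIM3 was lower with the inhibitor as well (-0.22, limma adjusted p = 0.0055). FOXO3, a transcription factor that PIM kinases can inactivate, rose by 0.64 in the knockdown and by 0.33 with the inhibitor, and the inhibitor value became -0.10 with the control columns exchanged. It rose with overexpression too (0.24, adjusted p = 0.011), a call that ended without Vector replicate 1 and without overexpression replicate 1. EIF4EBP1, a brake on translation, fell by 0.46 in the knockdown. It was also lower with the inhibitor (-0.22, limma adjusted p = 0.0029) and with overexpression (-0.13, limma adjusted p = 0.039). The overexpression call was kept in 13 of 23 alternatives. BAD, a pro-apoptotic substrate, rose by 0.35 with the inhibitor and CDKN1B, the cell cycle inhibitor p27, by 0.34, though the call of CDKN1B ended with the control columns exchanged. CDC25A, a cell cycle phosphatase, fell by 0.41 with overexpression. It was lower in the knockdown as well (-0.29, limma adjusted p = 9.9e-04), a call that ended with the control columns exchanged.

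**Figure D4:**
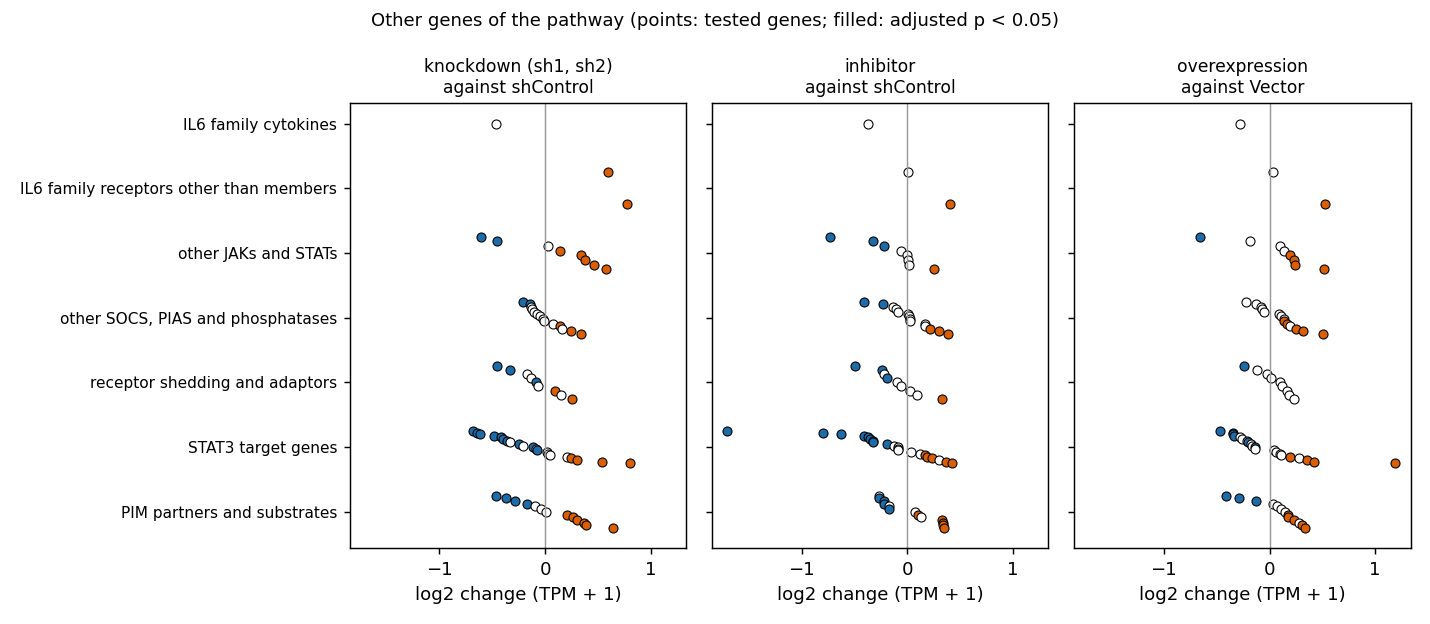
Log2 change on the log2(TPM + 1) scale of the tested genes of 7 lists of the pathway in the knockdown, inhibitor and overexpression comparisons; each point is a gene and filled points passed at an adjusted p below 0.05. The points of most lists lie on both sides of 0, and the lowest point with the inhibitor and the highest with overexpression are both VEGFA, at -1.70 and 1.19.

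Across the 12 libraries IL6R and PIM1 had similar profiles, with a Pearson r of 0.97 on the log2 scale; the libraries fall into 6 groups, so the value describes group differences more than independent points. SOCS3 and STAT3 had an r of 0.90, and SOCS1 ran against IL6R at -0.79. Among 9015 other genes with a mean of at least 5 TPM, those most like IL6R were RDH11, a retinol dehydrogenase, the ER retrieval receptor KDELR1 and the kinase PTK2B, each with an r of 0.98. PTK2B was at 31.4 and 33.1 TPM in the means of sh1 and sh2 and 29.1 TPM with the inhibitor, against 43.0 TPM in shControl. The gene most like PIM1 was CSF2RB, the shared beta chain of the IL3, IL5 and GM-CSF receptors (r = 0.98), at 8.80 TPM with sh1, 10.46 TPM with sh2 and 6.38 TPM with the inhibitor, against 16.4 TPM in shControl. It was followed by SEMA4A and SOGA2, also at 0.98. SOCS3 was most like LINC00263 (0.94), the desaturase FADS1 (0.93) and ALPK2 (0.93), and PIM2 was most like citrate synthase CS (0.94), ATG4A (0.93) and BAZ1A (0.92).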

How the data were processed

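The values were TPM as deposited by the authors, 1 per gene and library. Per the labels' protocols, libraries were poly(A) selected and stranded. The submitters' processing notes list, without roles, the build GRCh38.p13 and the tools RSEM 1.3.1, HISAT, DESeq2 1.4.5 and Bowtie2 2.3.4.3. TPM holds no depth, so depth is unknown and no count model was fitted. No 2 libraries were identical.

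The filter kept genes that reached 1 TPM in 2 or more libraries. Control columns without a group name were assigned by library number. limma 3.58.1 (R 4.3.3) fitted log2(TPM + 1) with 1 mean per group and trended eBayes, with Benjamini-Hochberg adjustment over all 12731 genes per comparison and calls below 0.05. The fit was tested on simulated data. The labels do not say whether replicates were grown apart, so p-values measure spread between libraries that may be technical. Members, lists and tests were chosen with earlier results of these data known. Named genes were the members, STK17B, up to 4 called genes of each list and comparison, and the 3 genes most like each of IL6R, SOCS3, PIM1 and PIM2. Alternatives were other pseudocounts, filters, scalings and eBayes settings, a fit of the compared groups, a replicate block, exchanged control columns and leaving out each library. The plasma cell marker JCHAIN was read under its older symbol IGJ. Motifs with other spacings and GC boxes were searched after the planned ones. Gene coordinates are from GENCODE on GRCh38. Some list genes are not reported here.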

Additional observations from a re-analysis of the deposited data

How the results depend on the processing

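Of 81 results, 9 members in 9 comparisons, 47 kept their direction and side of the threshold, or stayed uncalled, in all 23 alternatives, among them IL6R, JAK1, SOCS1 and PIM1 in the knockdown and IL6R, JAK1, STAT3, SOCS3 and PIM1 with the inhibitor. The count of members called in the overexpression comparison was 2 in place of 4 without a filter and without the eBayes trend, and in sh2 against sh1 it was 1 in place of 2 without a filter, after the median of ratios, after quantile normalization, without the trend and with the replicate block, and 0 when the 2 groups alone were fitted. Leaving out each library gave counts of 4 to 5 in the knockdown, 4 to 5 for sh1, 3 to 4 for sh2, 5 to 6 for the inhibitor, 1 to 4 for overexpression (1 without Vector replicate 1, 2 without Vector replicate 2 or overexpression replicate 1), 0 to 2 for sh2 against sh1 and 5 to 6 for the inhibitor against the hairpins. All genes called in sh2 against sh1, 197, ranged from 14 without sh2 replicate 1 to 331 with a filter at 5 TPM, with 18 without sh2 replicate 2 and 28 without sh1 replicate 2. In Vector against shControl, 3724 genes became 2099 without Vector replicate 2, 2107 without shControl replicate 1 and 2472 without shControl replicate 2.

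Exchange of the control columns changed most: 8 members were called in the knockdown, 7 for sh2 and 8 for the knockdown effect minus the overexpression effect, and all genes called became 7468 with overexpression (4689 as assigned) and 7605 in the difference of effects (3806 as assigned). IL6ST then turned to -0.45 in the knockdown, -0.52 for sh1, -0.39 for sh2 and -1.07 in the difference of effects, where PIM2 became -0.17. IL6ST also became -0.60 with the inhibitor and 0.62 with overexpression, and both passed. In Vector against shControl the exchange turns every sign by construction (IL6R -0.34, IL6ST -0.55), which says nothing of stability and alone keeps both out of the 47. Among list genes in the knockdown IL11RA became -0.32, STAT4 -0.36, STAT2 -0.40, PIAS3 -0.36, DUSP22 -0.38 and SHC1 -0.11. With the inhibitor IL11RA became -0.90, STAT4 -0.93, FOXO3 -0.10 and NUMA1 -0.13, and with overexpression STAT4 became 0.28. Of the scalings, quantile normalization turned NUMA1 with the inhibitor to -0.018 and the median of ratios turned STAT3 with overexpression to -0.10. The causes were not tested. Deviations of same-numbered libraries correlated at -0.10 to 0.14 over 15 pairs of groups. Such low values over all genes cannot exclude a pairing that touches some groups or few genes. With the replicate block PIM2 with overexpression and PIM1 in sh2 against sh1 lost their calls, and all genes called in sh2 against sh1 were 114.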
